A study of Mus musculus with 2 samples.

Results

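The axon guidance genes of the mouse, taken as the ligands and receptors of the semaphorin, ephrin, Slit and netrin systems, were followed in 2 rhabdoid tumors (RT). The genes were chosen by symbol alone: protein-coding genes of semaphorin classes 3 to 7, plexins, neuropilins, ephrins, Eph receptors, Slits, Robo receptors, netrins, Unc5 receptors and Dcc. This gave 69 of the 55416 genes of the count table, of which 35 encode ligands and 34 encode receptors. Both tumors had formed in heterozygous Dppa3-cre::Smarcb1 Fl/+ mice on a C57BL/6 background, and ages were not given. In these animals Cre recombinase is expressed from the Dppa3 locus, which is active in primordial germ cells, and deletes a floxed copy of Smarcb1, which encodes part of the SWI/SNF chromatin remodeler. The labels place 1 tumor inside the skull at the trigeminal nerve (intracranial) and the other in the maxillary part of the face (extracranial), and assign both to the MYC subgroup. No normal tissue or control animal was part of the comparison. Each library came from tissue of 1 tumor with any normal cells in it. Whether tissue next to the tumor was taken along at dissection was not stated.

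Axon guidance molecules were named for steering growing nerve fibers. Semaphorins signal through plexins, with neuropilins as co-receptors of most secreted forms. Ephrins bind Eph receptor tyrosine kinases and can also signal back into the cell that carries them. Slits act through Robo receptors, and netrins through Dcc and the Unc5 receptors. The same systems guide the migration of neural crest cells, blood vessels and immune cells, and many members are expressed in tumors.

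Depth was 34545846 counts, spread over 29670 detected genes, in the library labelled intracranial (IC library). It was 26915696 counts, spread over 27252 genes, in the library labelled extracranial (EC library). Levels are given as CPM, counts relative to library size after TMM scaling, and 3 counts, taken as the floor, corresponded to 0.0863 and 0.112 CPM. With 1 library per location there was no replicate spread and no test between locations. The 95% intervals given here are exact binomial and cover counting error only. Smarcb1 itself had 365 counts in the IC library (10.5 CPM, 9.45 to 11.6) and 530 in the EC library (19.8 CPM, 18.2 to 21.6). By the authors' staining, an intracranial and an extracranial tumor of this model had both lost Smarcb1 protein. Which cells or which allele gave the Smarcb1 counts was not tested.

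The libraries also differed in markers of cell types, all of which were measured in the same bulk RNA. In such RNA, fewer cells of a type and less RNA per cell cannot be told apart. The 8 markers of epithelium, led by keratins, summed to 21725 CPM in the IC library and 1.61 CPM in the EC library, where 5 of the 8 were at or under the floor and 3, Krt5 among them, were at 0. The 6 neutrophil markers summed to 685 and 0.934 CPM, the former mostly S100a9 (416 CPM) and S100a8 (258 CPM). Beyond counting error 4 of the 6 were higher in the IC library. The other neutrophil markers, Ly6g with 4 and 1 counts and Ngp with 9 and 0, were too low to compare. In the other direction, all 8 macrophage markers were higher in the EC library beyond counting error, with sums of 5275 and 11496 CPM, and so were all 8 endothelial markers, with 190 and 321 CPM. Schwann cell markers summed to 227 and 164 CPM, mostly Pmp22 (177.5 and 135.4 CPM). Of these 8 markers 7 were higher in the IC library, with a median log2 ratio of -1.49, and Mag was higher in the EC library (2.09). Sox10, which defines that lineage, had 43 and 0 counts. Neuron markers summed to 85.0 and 138.6 CPM, and of these 8 markers 5 were higher in the EC and 3 in the IC library. All 6 skeletal muscle markers were higher in the IC library, with sums of 41.6 and 8.30 CPM. Epithelial and muscle sums were thus higher in the tumor labelled intracranial than in the one labelled maxillary. Whether the tissue of each library matched its label was not tested. Bone and tooth markers summed to 8.92 and 151 CPM, the latter mostly Dmp1 (149 CPM). T cell markers summed to 12.2 and 30.8 CPM. Cd4, Cd8a and Trac, 3 of the 6, were higher in the EC library beyond counting error. The intervals of Cd3d, Cd3e and Cd3g included equality. Mesenchymal markers were abundant in both, at 5149 and 5822 CPM. Of these 8 markers 5 were higher in the IC library and 3 in the EC library, Dcn among the latter (107.8 and 789.6 CPM). The authors describe MYC tumors as having a more mesenchymal phenotype, so these markers are not specific to normal cells. The part of these cell types in the results that follow was not tested.

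**Figure D1:**
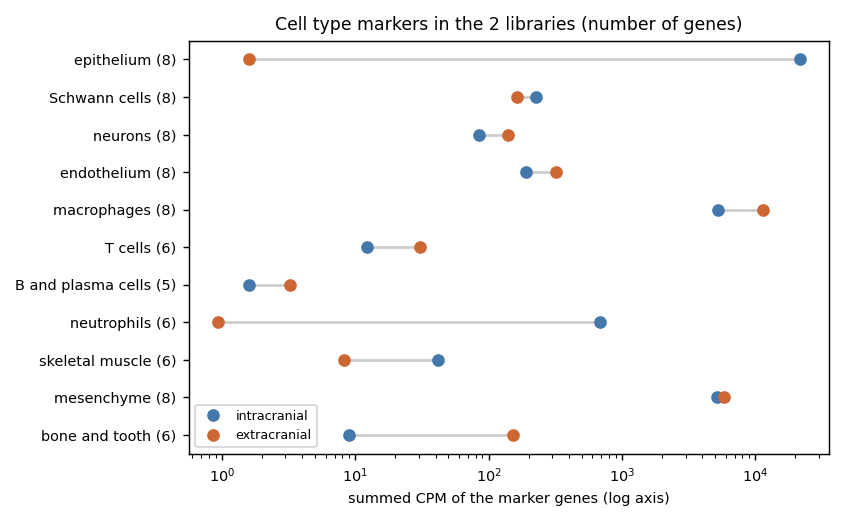
Summed CPM (log axis) of 11 cell type marker lists in the IC and the EC library, with the number of genes of each list. The epithelial sums lay farthest apart (21725 and 1.61 CPM), while the macrophage sums were 5275 and 11496 CPM.

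Nearly all axon guidance genes were detected in both tumors. More than 3 counts were found for 64 of the 69 in the IC library and for 65 in the EC library, and 48 and 39 had 100 or more. Genes with 10 or more counts over both libraries were compared, which kept 65 of the 69. The 4 left out were Epha6, Epha8, Ntn5 and Dcc, and the first 3 had 3 or fewer counts in each library. Dcc, the netrin receptor that mediates attraction, had 0 and 6 counts. The summed level of all 69 genes was 1183 CPM in the IC library and 1535 CPM in the EC library. Receptors made up 683 and 911 CPM of it, and ligands 500 and 624 CPM. The ligand difference rested on 1 gene, since the ligands other than Sema7a, singled out after its values were seen, summed to 484 and 384 CPM. The median level of the 65 compared genes was 7.43 and 6.69 CPM, against 9.76 and 8.33 CPM for all 21977 genes compared.

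**Figure D2:**
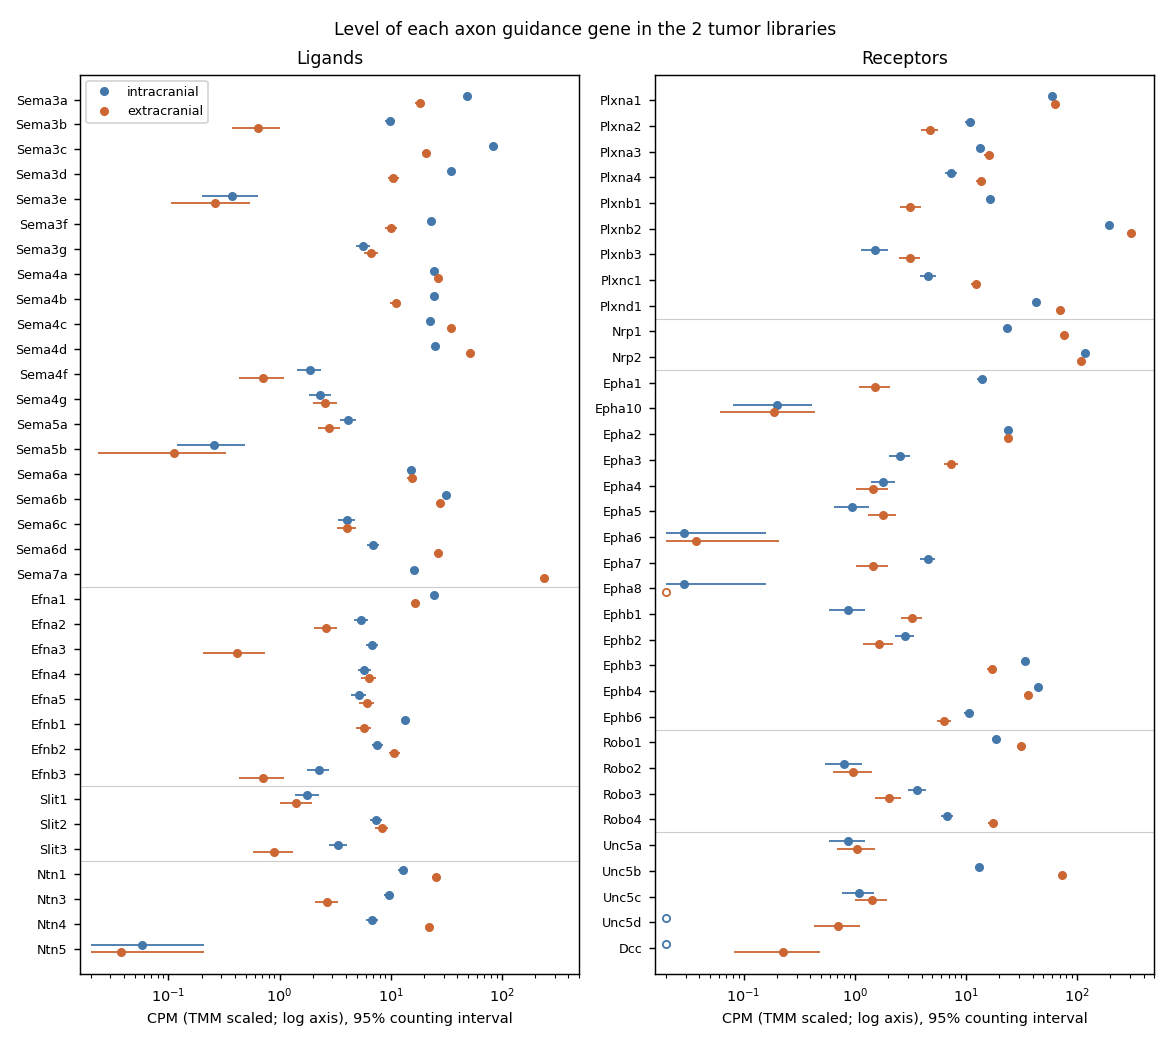
Level of each of the 69 genes in CPM (log axis) with 95% counting intervals, ligands on the left and receptors on the right, with blue points for the IC and orange points for the EC library. Open circles at the left edge stand for 0 counts and intervals are cut there. Plxnb2 (196.6 and 305.9 CPM) lay at the right in both libraries, while Sema7a moved from 16.3 to 240.2 CPM.

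A gene was counted as differing where the whole interval of its ratio lay beyond 4-fold. This held for 7 of the 65 genes (10.8%), against a background of 7.19% of all genes compared and 8.94% of the protein-coding ones. Higher in the EC library were 3 genes, Sema7a, Unc5b and Unc5d (background 1.78% of all and 2.11% of protein-coding genes). Higher in the IC library were 4, Sema3b, Efna3, Epha1 and Plxnb1 (background 5.41% and 6.83%). The share beyond 4-fold was thus near the background of protein-coding genes. With a limit of 2-fold the count was 21 of 65 (32.3%), against 15.6% of all and 18.9% of protein-coding genes. Of these, 10 were higher in the EC library (background 5.86% of all genes) and 11 in the IC library (9.77%). Among the 55 members with 100 or more counts, 6 (10.9%) lay beyond 4-fold and 20 (36.4%) beyond 2-fold, against 7.41% and 15.8% of 15582 such genes. At the 2-fold limit the share of members was therefore above the background in both directions.

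The differences went both ways and cancelled in the median. The median log2 ratio, EC over IC, was 0.00 for the 65 genes and -0.04 for all genes. Its size without regard to sign had a median of 0.92 in the 65 genes and 0.44 in all genes. Only 34 of the 65 ratios (52.3%) were within 2-fold, compared to 72.4% over all genes. At the weakest limit, an interval that excluded equality, 29.2% of all genes were higher in the EC library and 32.2% in the IC library, or 33.1% and 37.8% of protein-coding genes. Of 34 ligands compared, 7 were higher in the EC library and 16 in the IC library beyond counting error, with a median log2 ratio of -0.42. Of 31 receptors, 14 were higher in the EC library and 10 in the IC library, with a median of 0.27. Whether ligands and receptors differ in this was not tested. The remaining 18 of the 65 genes had intervals that spanned equality.

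**Figure D3:**
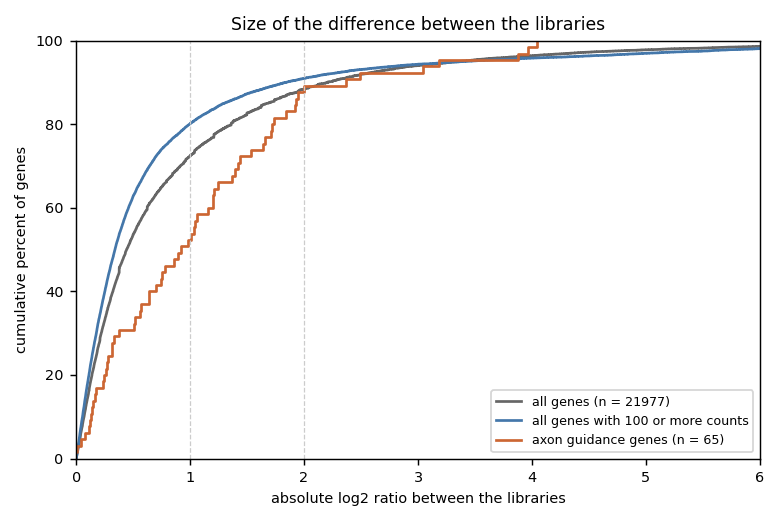
Cumulative percent of genes (y axis) against the size of the log2 ratio between the libraries without its sign (x axis), for the 65 axon guidance genes, all 21977 genes compared and the 15582 with 100 or more counts. The curve of the axon guidance genes lies to the right of the others, with medians of 0.92, 0.44 and 0.34.

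**Figure D4:**
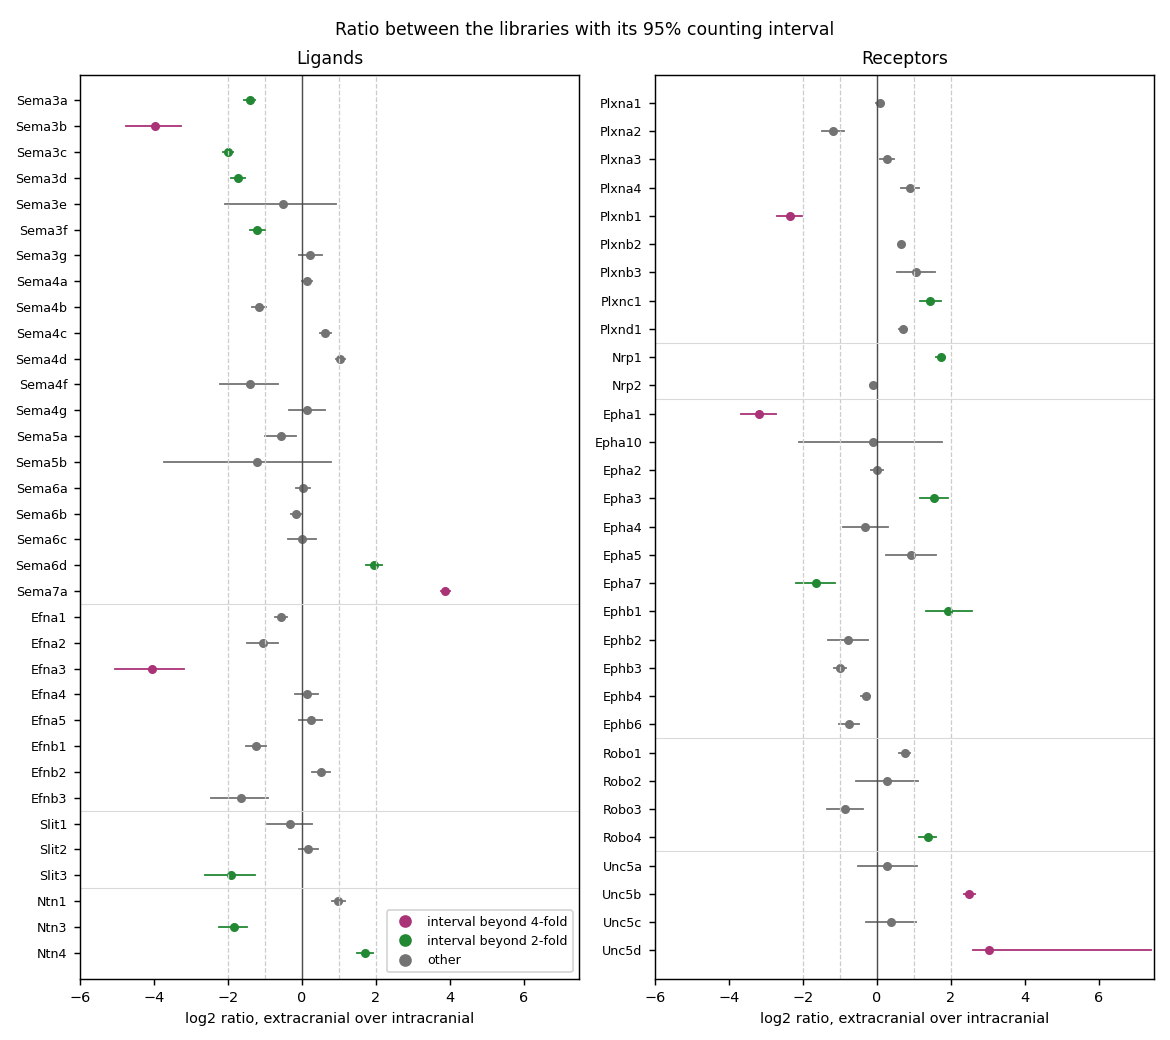
Log2 ratio, EC over IC, of each of the 65 compared genes with its 95% counting interval, ligands on the left and receptors on the right, and dashed lines at 2-fold and 4-fold. Sema7a (3.88) and Unc5b (2.49) stand to the right, Efna3 (-4.05), Sema3b (-3.97) and Epha1 (-3.18) to the left. The interval of Unc5d is open to the right because it had 0 counts in the IC library.

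Among ligands, the leading semaphorin changed between the tumors. Sema7a (ENSMUSG00000038264), a semaphorin held on the membrane by a GPI anchor that binds integrins and Plxnc1, had 566 counts in the IC library and 6427 in the EC library. This corresponded to 16.3 and 240.2 CPM, a 14.7-fold difference (13.5 to 16.1). Per kilobase of exon, the scale on which levels of different genes can be compared, Sema7a ranked 11 of the 69 genes in the IC library and 1 in the EC library. It held 62.8% of the summed semaphorin level per kilobase in the EC library and 8.08% in the IC library. In the IC library the leading semaphorin was Sema3c (ENSMUSG00000028780), a secreted form needed for outflow tract and vessel development, with 19.2%. Sema3c had 2907 counts (83.7 CPM) in the IC library and 560 (20.9 CPM) in the EC library, and its interval, 3.65- to 4.38-fold higher in the IC library, fell just short of the 4-fold rule.

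The 250 bases upstream of the RefSeq transcript start of these leading semaphorins (assembly GRCm38.p6, chr9:57939862-57940111 and chr5:17574566-17574815, both on the plus strand) are printed because these genes led the family in 1 library each. Capitals mark the GC box GGGCGG or its reverse complement CCGCCC.
Sema7a: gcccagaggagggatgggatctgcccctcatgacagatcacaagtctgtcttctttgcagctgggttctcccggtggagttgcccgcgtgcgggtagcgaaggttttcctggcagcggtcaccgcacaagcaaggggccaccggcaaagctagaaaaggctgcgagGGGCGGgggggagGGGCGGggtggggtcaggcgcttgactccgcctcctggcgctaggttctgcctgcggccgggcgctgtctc
Sema3c: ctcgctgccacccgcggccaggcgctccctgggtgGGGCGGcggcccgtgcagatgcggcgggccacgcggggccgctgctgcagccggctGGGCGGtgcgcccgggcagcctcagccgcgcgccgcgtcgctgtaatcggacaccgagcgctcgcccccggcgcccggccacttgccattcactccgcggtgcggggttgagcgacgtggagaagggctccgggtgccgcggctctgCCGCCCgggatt
The Sema7a window held 2 GC boxes at a G and C content of 66.4%, and the Sema3c window held 3 at 78.4%. Neither held the E-box CACGTG, a palindrome that MYC proteins can bind, or TATAAA on either strand. Windows were found for 59 of the 69 genes (75 windows, since a gene can have several starts). A GC box was present in 70.7% of these, compared to 42.6% of the windows of protein-coding genes and 32.7% of all windows. The E-box was present in 5.33%, against 6.63% and 6.02%, and TATAAA in 2.67%, against 11.6% and 12.4%. The leading semaphorins, opposite in direction, thus shared GC boxes and the absence of the other motifs from these windows. These matches describe letters in the reference and not binding.

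The secreted class 3 semaphorins, which act through neuropilins and plexins, had a lower sum in the EC library. Their 7 members summed to 207 CPM in the IC library and 67.5 CPM in the EC library, a 3.07-fold difference, and 5 of 7 lay beyond 2-fold in that direction (background 9.77% of all genes) and none in the other (5.86%). Sema3b (ENSMUSG00000057969) stood apart with 345 and 17 counts, 15.6-fold higher in the IC library (9.62 to 27.1). Sema3a, a repellent of sensory axons, had 1696 and 489 counts (log2 ratio -1.42, -1.57 to -1.27). Sema3d had 1226 and 284 counts (log2 ratio -1.73) and Sema3f had 811 and 271 (-1.20). Sema3d and Sema3a are adjacent protein-coding genes on chromosome 5. These members thus shared a direction at levels that ranged, in the IC library, from 9.93 CPM for Sema3b to 83.7 CPM for Sema3c. The exceptions were Sema3g, known from arterial endothelium, with 198 and 179 counts (log2 ratio 0.23, -0.07 to 0.53), and Sema3e with 13 and 7 counts. Without Sema7a, all other semaphorins summed to 370 CPM in the IC library and 273 CPM in the EC library.

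Transmembrane semaphorins were more even. Of the 6 class 4 members, 2 were higher in each library beyond counting error, and none had its whole interval beyond 2-fold. Sema4d, an immune semaphorin that binds Plxnb1 and Cd72, had 876 counts in the IC library and 1384 in the EC library (log2 ratio 1.04, 0.91 to 1.16). Sema4b had 860 and 297 counts (-1.16, -1.35 to -0.97). Sema4a and Sema4c, with 850 and 720 and with 788 and 944 counts, stayed within 2-fold. Sema4f and Sema4g were low, with 65 and 19 and with 81 and 69 counts. In class 6, whose members bind A-type plexins, Sema6d had 241 and 717 counts (1.95, 1.74 to 2.17), which was beyond 2-fold but not 4-fold. The other class 6 members differed little. Sema6b, the second semaphorin per kilobase in the IC library, had 1088 and 747 counts (-0.17, -0.30 to -0.03), and the intervals of Sema6a and Sema6c included equality. Both class 5 members were low, with 144 and 75 counts for Sema5a and 9 and 3 for Sema5b.

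On the receptor side, 6 of 9 plexins were higher in the EC library beyond counting error (background 29.2% of all and 33.1% of protein-coding genes). In the IC library 2 were higher (32.2% and 37.8%). The median log2 ratio was 0.64 against -0.04 for all genes. Plxnb2 (ENSMUSG00000036606), a receptor for class 4 semaphorins, led the family in both libraries. It had 6830 counts in the IC library and 8187 in the EC library (196.6 and 305.9 CPM), a 1.56-fold difference (1.51 to 1.61), and held 58.7% and 64.1% of the plexin level per kilobase. Its relative Plxnb1 (ENSMUSG00000053646) went the other way, with 570 and 85 counts, 5.16-fold higher in the IC library (4.11 to 6.57). Plxnb1 was thus the member nearest to the 4-fold limit among those that passed it. Plxnc1, the plexin bound by Sema7a, had 159 and 331 counts (log2 ratio 1.43, 1.16 to 1.72), and so was higher in the same library as its ligand, at 12.4 CPM beside 240.2 CPM of Sema7a. Plxnd1, known from endothelium, had 1494 and 1871 counts (0.70, 0.60 to 0.80). Plxna1, the second plexin per kilobase in the IC library, had 2092 and 1699 counts, and its interval included equality (-0.02 to 0.17). An antisense gene, Gm26811, overlaps 10.7% of its exon bases, so that its counts are uncertain where strand was not used. The other A-type plexins, the signaling partners of neuropilins, did not move together. Plxna2 had 378 and 127 counts (-1.20), Plxna3 471 and 434 (0.26) and Plxna4 258 and 369 (0.89). Plxnb3 was low, with 53 and 84 counts.

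The neuropilins diverged. Nrp2 (ENSMUSG00000025969), which binds Sema3f and Sema3c, had 4131 counts in the IC library and 2934 in the EC library (118.9 and 109.6 CPM), with its log2 ratio at -0.12 (-0.19 to -0.05). Nrp1 (ENSMUSG00000025810), the co-receptor for Sema3a and for VEGF, had 810 and 2058 counts (23.3 and 76.9 CPM), or 1.72 on the log2 scale (1.60 to 1.84). Nrp2 therefore held 80.8% of the neuropilin level per kilobase in the IC library but 54.1% in the EC library. Sema3a and Nrp1, a ligand and its receptor, differed in opposite directions.

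**Figure D5:**
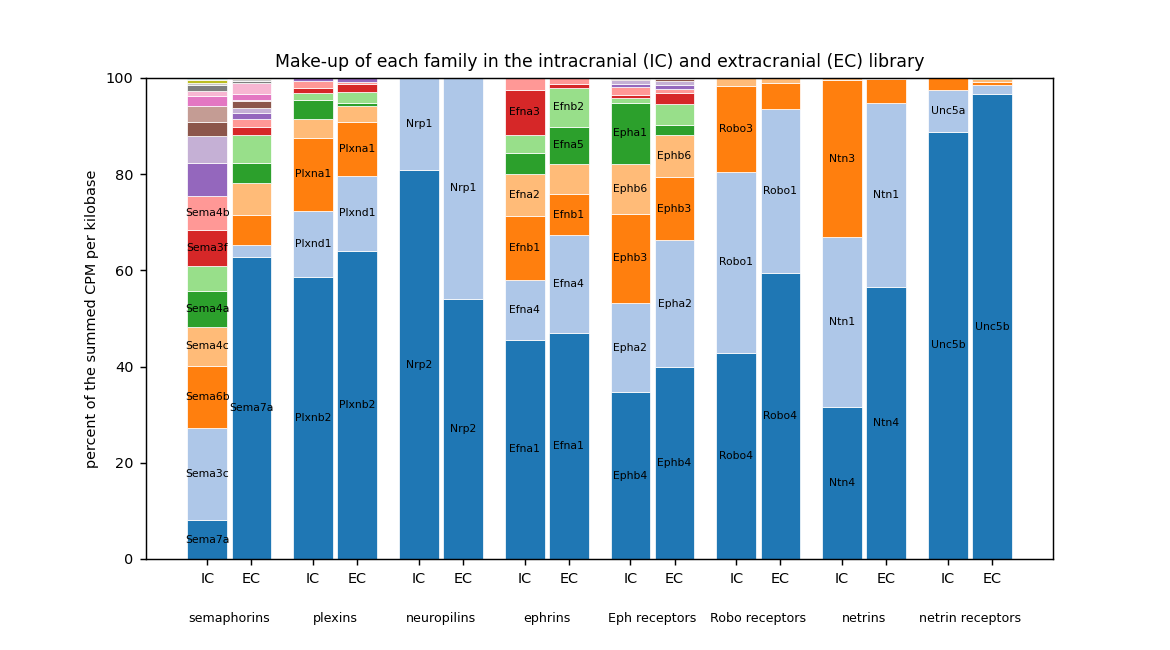
Share of each member in the summed CPM per kilobase of its family (y axis, percent) in the IC and the EC library, with segments of at least 7% named where they fit and Slits not shown. Sema7a filled 62.8% of the semaphorin bar in the EC library and 8.08% in the IC library, while Plxnb2 led the plexins in both.

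Of the 8 ephrins, 5 were higher in the IC library beyond counting error (background 32.2% of all and 37.8% of protein-coding genes). In the EC library 1, Efnb2, was higher (29.2% and 33.1%), and the family summed to 71.2 and 49.4 CPM. Efna1, an inflammation-inducible ligand of Epha2, led in both libraries with 854 and 447 counts (log2 ratio -0.56, -0.73 to -0.39), or 45.6% and 46.9% of the ephrin level per kilobase. Efna3 (ENSMUSG00000028039) had the widest ratio of the 65 genes, with 236 counts in the IC library and 11 in the EC library, 16.5-fold higher in the former (9.07 to 33.5). Efna1, Efna3 and Efna4 are adjacent protein-coding genes on chromosome 3, and only Efna3 of the 3 was beyond 4-fold, as Efna4 had 202 and 170 counts (log2 ratio 0.13, -0.17 to 0.43). An antisense gene, Gm15998, overlaps 14.1% of the exon bases of Efna3, and reads of such genes are uncertain because strand use in the counting was not stated. The same holds for 10.5% of the exon bases of Efna4 and 7.27% of those of Sema4c. Of the B-type ephrins, which span the membrane, Efnb1 had 471 and 153 counts (-1.25) and Efnb3 78 and 19 (-1.66). Efnb2, the arterial ephrin, had 265 and 290 counts (0.51, 0.26 to 0.75). Of the remaining A-type ephrins, Efna2 was higher in the IC library with 189 and 70 counts (-1.06), and the interval of Efna5 (179 and 163) included equality.

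Of the 12 Eph receptors compared, 6 were higher in the IC library beyond counting error and 3 in the EC library. The background was the same 32.2% and 29.2% of all genes, or 37.8% and 33.1% of protein-coding genes. Ephb4, the partner of Efnb2 between veins and arteries, led in both with 1552 and 964 counts (log2 ratio -0.31, -0.43 to -0.19), or 34.7% and 39.9% of the family level per kilobase. Epha1 (ENSMUSG00000029859), known mainly from epithelia, had 484 counts in the IC library and 41 in the EC library, 9.09-fold higher in the former (6.60 to 12.8). Epha2, by contrast, was at the same level, with 836 and 643 counts (24.1 and 24.0 CPM) and an interval of 0.900- to 1.11-fold. The epithelial marker sums given above were also higher in the IC library, and the part of epithelium in the Epha1 counts was not tested. Of the Epha1 exon bases, 6.01% are shared with Zyx on the opposite strand. Ephb3 had 1192 and 457 counts (log2 ratio -1.01, -1.17 to -0.85) and Epha7 158 and 39 (-1.64, -2.19 to -1.13). The Eph receptors higher in the EC library were scarce in both tumors. Epha3 had 89 and 198 counts (log2 ratio 1.53) and Ephb1 30 and 88 (1.93), so that neither passed 10 CPM, and Epha5 had 33 and 48. Ephb6, a member without kinase activity, and Ephb2 were higher in the IC library within 2-fold, with 375 and 171 and with 98 and 44 counts. The intervals of Epha4 (63 and 39) and Epha10 (7 and 5) included equality.

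The Slit ligands were low, with 12.5 and 10.7 CPM summed over the 3 genes. Slit3 had 118 and 24 counts (log2 ratio -1.92, -2.62 to -1.28), whereas the intervals of Slit1 (62 and 38) and Slit2 (256 and 223) included equality. The 4 Robo receptor genes summed to 29.8 and 51.7 CPM. Robo4, a member of blood vessels, had 236 and 468 counts (1.36, 1.14 to 1.60) and led per kilobase in both libraries with 42.9% and 59.5%. Robo1, the classical axon receptor for Slit, had 646 and 835 counts (0.75, 0.60 to 0.90), and without correction for length it rather than Robo4 led, with 62.3% and 60.4%. Robo3, adjacent to Robo4 on chromosome 9, was instead higher in the IC library with 127 and 54 counts (-0.86, -1.34 to -0.39). Robo2, the neighbor of Robo1 on chromosome 16, was low in both, with 28 and 26 counts.

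Netrins and their receptors were, in sum, higher in the EC library. The netrins summed to 29.5 and 50.5 CPM. Ntn1, the founding secreted member, had 448 and 680 counts (log2 ratio 0.98, 0.80 to 1.15), and Ntn4, a basement membrane component, had 238 and 598 (1.71, 1.49 to 1.93). Per kilobase Ntn1 led in the IC library with 35.4% and Ntn4 in the EC library with 56.5%, although without length Ntn1 led in both. Ntn3 went the other way, with 336 and 72 counts (-1.85, -2.23 to -1.48).

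Of the netrin receptors, Unc5b (ENSMUSG00000020099), a repulsive receptor also known from endothelium, accounted for nearly the whole level, at 88.9% and 96.6% per kilobase. It had 458 counts in the IC library and 1981 in the EC library (13.2 and 74.0 CPM), 5.62-fold higher in the latter (5.07 to 6.23), and its rank per kilobase among the 69 genes moved from 26 to 3. Unc5d (ENSMUSG00000063626) had 0 counts in the IC library, below the floor of 0.0863 CPM, and 19 in the EC library (0.710 CPM). By its counting interval it was at least 6.06-fold higher in the EC library, and the ratio was 8.22-fold with the floor of 3 counts in place of 0. Unc5a had 30 and 28 counts and Unc5c 38 and 38, and their intervals included equality.

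Several members are known from vascular endothelium, and they were grouped after their values were seen. Unc5b, Nrp1, Robo4, Plxnd1 and Efnb2 were 5.62-, 3.30-, 2.58-, 1.63- and 1.42-fold higher in the EC library, while the interval of Sema3g included equality and Ephb4 was 1.24-fold higher in the IC library. The sum of the 8 endothelial markers was 1.69-fold higher in the EC library, with single markers at log2 ratios of 0.11 to 1.80. The macrophage sum was 2.18-fold higher, with single markers at 0.66 to 1.93. The part of either cell type in the values of these genes was not tested.

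Genes that act with these ligands and receptors were read from 6 lists of 86 genes, all of which passed 10 counts. Beyond 4-fold were 3 higher in the EC and 8 in the IC library (12.8% of the 86), against 7.19% of all and 8.94% of protein-coding genes. Beyond 2-fold were 12 and 15 (31.4%), against 15.6% and 18.9%, and the median log2 ratio was -0.04. Among co-receptors, the listed members of the L1 family of adhesion molecules, which join neuropilins in semaphorin receptors, were lower in the EC library. L1cam had 423 counts in the IC library and 20 in the EC library, Chl1 had 637 and 19, and Nrcam had 880 and 108, which were 16.3-, 25.8- and 6.28-fold differences. In the other direction, Cd72, a receptor for Sema4d on B cells and macrophages, had 1345 and 4516 counts, 4.36-fold higher in the EC library.

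The intracellular effectors showed single large differences rather than a common one. The collapsin response mediator Dpysl3 had 5215 and 478 counts (8.40-fold higher in the IC library), and its relative Dpysl5 had 6 and 53 (11.5-fold higher in the EC library). Enah, an actin regulator downstream of Robo receptors, had 832 and 32 counts (log2 ratio -4.32), and the Rac exchange factor Tiam1 had 693 and 95. None of the 12 netrin effectors was beyond 4-fold. Among the rest, the hedgehog co-receptor Cdon had 682 and 101 counts and the Cxcl12 scavenger Ackr3 had 7894 and 1341, while the GPI-anchored netrin relative Ntng1 had 13 and 88. The small GTPases on which these systems converge were close to even, with 10129 and 7894 counts for Rhoa (log2 ratio 0.02, -0.03 to 0.06) and 6407 and 5984 for Rac1 (0.28, 0.23 to 0.33).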

How the data were processed

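Bulk RNA-seq of 2 tumors, 1 per location, was analysed. The deposited table held raw counts per Ensembl gene. For these counts the authors had prepared directional libraries from poly(A) RNA, sequenced single reads, aligned them with STAR (2.7.9a per the submitters' processing notes, which also list FastQC 0.11.9 and MultiQC 1.11) and counted them with featureCounts. Strand use and treatment of multiply aligned reads were not given in the sources used here.

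Symbols, biotypes, chromosomes and summed exon lengths came from GENCODE mouse release 21, which matched 52135 IDs (94.1%). IDs without a symbol held 0.694% and 0.950% of counts and stayed in library sizes. Promoter windows came from RefSeq (GRCm38.p6), and overlapping GC boxes were counted.

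Counts were scaled with TMM (edgeR 4.0.16, R 4.3.3; factors 1.006 and 0.994). Levels received Clopper-Pearson 95% intervals, and EC over IC ratios a conditional exact binomial interval (scipy 1.17.1). Counts of 3 or fewer were set to 3, making ratios bounds. Molecular identifiers were absent and reads are not independent molecules, so intervals and floors cover counting error only. Scripts were tested on simulated data. Alternatives comprised DESeq2 (1.42.0) size factors, total counts, upper quartile scaling, other count minimums, a 2-fold limit, a prior count of 2 and levels without length.

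The genes, lists and rules were chosen with earlier results of these data known. The rule for named genes covered family leaders per kilobase, members and pathway genes beyond 4-fold, and members at 3 or fewer counts in both libraries. Other genes were named after their values were seen.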

Additional observations from a re-analysis of the deposited data

How the results depend on the processing

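Other scalings shifted the median log2 ratio of all genes by -0.02 to 0.04 and no member ratio by more than 0.04. They turned the sign of 2 members at a ratio near 1, Epha2 and Sema6c. Upper quartile scaling left 6 members beyond 4-fold (3 higher in each library), as Plxnb1 no longer passed. A minimum of 100 counts also left 6 (2 higher in the EC and 4 in the IC library), without Unc5d. The 2-fold limit gave 10 members higher in the EC and 11 in the IC library (21 in all) and 12 and 15 other pathway genes (27 in all). Without correction for length, the shares in the IC library were 21.6% for Sema3c, 55.5% for Plxnb2, 83.6% for Nrp2, 34.5% for Efna1, 31.6% for Ephb4, 27.1% for Slit3, 22.8% for Robo4 and 43.8% for Ntn1. In the EC library they were 46.8% for Sema7a, 62.1% for Plxnb2, 58.8% for Nrp2, 33.8% for Efna1, 35.2% for Ephb4, 78.2% for Slit2, 33.8% for Robo4, 44.3% for Ntn4 and 95.6% for Unc5b. Slit2 rather than Slit3 thus led the Slits without length in the IC library too, at 58.7%. Lengths came from all annotated exons of a gene, not from the transcripts expressed. No paired analysis was possible because only 1 library stood for each location, and for the same reason no library could be left out. The location, the animal, the cell make-up and the library preparation cannot be told apart, and genes under about 10 counts were beyond the reach of this depth.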

Other observations

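Members of some effector families differed in opposite directions, and the genes named here were chosen after their values were seen. Of the Ena/VASP proteins, which extend actin filaments, Enah had 832 counts in the IC library and 32 in the EC library. Its relative Evl had 877 and 2346 (log2 ratio 1.80, 1.68 to 1.91), and Vasp was nearly even with 5006 and 4181 (0.12, 0.06 to 0.18). Of the srGAP proteins, which bind Robo receptors, Srgap2 had 1860 and 3479 counts (1.28, 1.20 to 1.36), Srgap3 had 580 and 94 (-2.25, -2.58 to -1.93), and the interval of Srgap1 (52 and 56 counts) included equality.

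Sema7a also signals through an integrin made of the Itga1 and Itgb1 chains. Itga1 had 213 and 472 counts (log2 ratio 1.52, 1.29 to 1.77), and Itgb1, which pairs with many other chains, was nearly even with 26182 and 20603 (0.03, 0.00 to 0.06). Of the plexins of the B type, Plxnb1 was higher in the IC library, while Plxnb2 (log2 ratio 0.64) and Plxnb3 (1.04) were higher in the EC library. Met and Erbb2, receptor tyrosine kinases that join plexins of this type, were higher in the IC library. Met had 1145 and 234 counts (-1.91, -2.12 to -1.71) and Erbb2 had 1099 and 326 (-1.38, -1.56 to -1.20). Both are also expressed in epithelium, whose marker sums were 21725 and 1.61 CPM, and the part of epithelium in these values was not tested.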
